A study of Mus musculus with 4 samples.

Results

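The core of the RAS to ERK cascade was followed at the transcript level in mouse dorsal cortex at E18.5 (embryonic day). A list of 7 genes was set: the RAS genes Hras and Nras, the RAF genes Araf and Braf, the MEK genes Map2k1 (Mek1) and Map2k2 (Mek2), and the ERK gene Mapk3. For each, the brightest feature that the platform annotation assigns to that gene alone was taken, and 5 of the 7 had such a feature, 1 each, among 19938 genes named in this way. Hras and Mapk3 were not analysed here, so the values cover the RAS, RAF and MEK steps of the cascade and not ERK itself. Expression was measured on 4 single-colour whole-transcript arrays, 2 per group. Control embryos were Mek1fl/wt, Mek2-/-, and mutant embryos were Mek1fl/fl, Mek2-/- with NestinCre. Both groups thus lack Mek2 by genotype, and NestinCre, whose promoter is active in neural progenitors, is named for the mutants alone. Cells outside the neural lineage, such as those of vessels and microglia, are not the cells this promoter is used to target. Nothing in the labels says whether the arrays of a group came from separate animals or litters, so p-values measure the spread between these samples. Values are log2 expression as the authors deposited them after RMA, and a level is not compared between genes.

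In this cascade, receptors at the cell surface load the small GTPase RAS with GTP, RAS recruits RAF kinases to the membrane, RAF phosphorylates MEK1 and MEK2, and these phosphorylate ERK1 and ERK2. Each step is served by several closely related genes, and loss of one is often covered by its relatives. In the developing cortex the cascade carries growth factor signals to radial glia and to glial precursors. The comparison asks whether transcripts of the RAS and RAF genes differ when Mek1 is deleted in neural cells that already lack Mek2. By genotype such cells have no intact MEK gene left, so Map2k2 cannot stand in for Map2k1 there. The signals of both MEK genes are described all the same. Because most control of the cascade acts on phosphorylation, these arrays report transcripts alone and not the activity of the kinases.

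The dorsal cortex label was checked against its markers, none of which passed the test between the groups. Of 7 cortical markers with a feature, Neurod6, Tbr1 and Neurod2, transcription factors of cortical excitatory neurons, were at 12.04, 10.99 and 10.22 in the control means, against 6.16 for the threshold that set dim genes aside. Emx2, a factor of cortical progenitors on the same list, was at 7.80 and 7.86 in controls and 6.70 and 7.56 in mutants. Of the markers listed for neighbouring regions, some lay well above that threshold and others near or under it. Dlx1, of subpallial interneurons, was at 10.12 in the control mean, Dlx2 at 8.35, Drd1 at 8.23 and Nkx2-1 at 6.47. Gsx2, on the same list, was set aside as dim. Ttr, of choroid plexus, varied between the controls, at 6.67 and 9.15, while Folr1 was at 6.31 in their mean and Kcne2 was set aside. Lhx9, used here for thalamus, varied between the mutants, at 6.40 and 7.86. Tcf7l2 and Gbx2, also listed for thalamus, were at 6.60 and 6.55 in the mutant means. Their part in the core gene values was not tested. Over the 13956 genes tested, replicate arrays differed by a root mean square of 0.149 in controls and 0.191 in mutants. Xist and Y-linked genes placed 1 female and 1 male sample in each group. None of the 5 core genes passed the test in limma (adjusted p under 0.05), lower or higher, where 1.01% of all genes passed as lower and 0.0143% as higher. At an unadjusted p under 0.05 in limma there was again none among the 5, against 13.4% of all genes (7.69% lower and 5.73% higher). The exact permutation test over 2 against 2 arrays cannot give a two-sided p under 0.333 for any single gene.

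**Figure D1:**
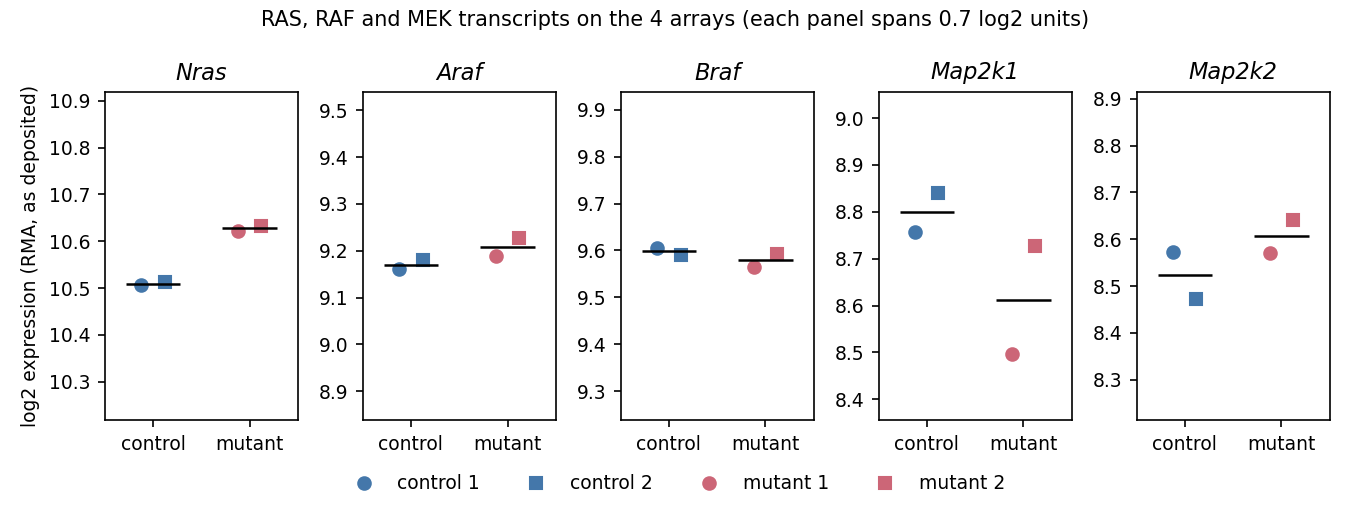
Log2 expression (RMA, y axis) of the 5 core genes on the 2 control and 2 mutant arrays; circles are replicate 1, squares replicate 2, bars the group means, and all panels span the same range. Map2k1 lay lower in both mutants, at 8.497 and 8.728, Nras lay higher at 10.622 and 10.633, and Braf overlapped between the groups.

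Map2k1 encodes MEK1, the kinase whose gene was targeted. It read 8.758 and 8.841 on the control arrays and 8.497 and 8.728 on the mutant arrays. Both mutants lay under both controls, and the distance between the mutants, 0.231, was wider than that between the controls, 0.0827. The mutants lay further apart than 0.231 in 11.7% of the genes tested. The means were 8.80 ± 0.06 and 8.61 ± 0.16 (SD, n = 2 each), and the difference of -0.19 ± 0.09 (SE) did not pass in limma (adjusted p = 0.469). Its 95% interval ran from -0.42 to 0.05, which is 0.747-fold to 1.03-fold of the control level. The difference was -0.07 without mutant 1 and -0.30 without mutant 2, so its size depended on which mutant array was kept. The feature summarises probes along the transcript, and no source used here places them relative to the floxed part, so the value does not check the deletion.

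Map2k2 encodes MEK2, the closest relative of MEK1, and both groups are null for it by genotype. It was at 8.572 and 8.473 in controls and at 8.571 and 8.641 in mutants. The groups overlapped, since mutant 1 lay just under control 1. The difference was 0.08 ± 0.07 (SE, limma adjusted p = 0.657), with a 95% interval from -0.08 to 0.25. The upper end of that interval is 1.19-fold of the control level. All 4 values lay above the filter on dim genes, so the array still reports a Map2k2 signal in samples labelled Mek2-/-. No source used here places the probes relative to the changed part of the allele, and the signal does not check that label.

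The MEK genes were also set against each other within each array. Map2k2 minus Map2k1 was -0.19 and -0.37 in controls and 0.07 and -0.09 in mutants. Both mutants lay above both controls. The mean shifted by 0.27, from -0.28 ± 0.13 to -0.01 ± 0.11 (SD, n = 2 each), with an exact two-sided permutation p of 0.333, the smallest that 6 labellings can give. Leaving out 1 array at a time gave shifts between 0.18 and 0.36. With all arrays Map2k1 differed by -0.19 and Map2k2 by 0.08, and without mutant 1 by -0.07 and 0.12, so which gene gave more of the shift depended on that array.

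The sequences ahead of the start sites are shown for these paralogues, the pair changed in the genotypes. They are also shown for Nras, whose replicate arrays lay closest together among the core genes. They are from RefSeq on GRCm38.p6, 5′ to 3′ on the gene's strand, and end at the base before the annotated gene. RefSeq held a window for all 5 measured genes. The Map2k1 stretch is chr9:64253606-64253855 (minus strand), the Map2k2 stretch chr10:81105665-81105912 (plus strand), and the Nras stretch chr3:103058187-103058284 (plus strand). Capitals mark GC boxes (GGGCGG), bound by SP and KLF factors, and CCAAT boxes (CCAAT), on either strand.
Map2k1: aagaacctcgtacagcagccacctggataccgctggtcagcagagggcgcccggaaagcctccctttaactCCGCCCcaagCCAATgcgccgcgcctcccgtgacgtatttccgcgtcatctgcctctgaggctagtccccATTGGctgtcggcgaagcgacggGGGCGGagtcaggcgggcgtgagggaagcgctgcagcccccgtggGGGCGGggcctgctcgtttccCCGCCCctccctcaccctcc
Map2k2: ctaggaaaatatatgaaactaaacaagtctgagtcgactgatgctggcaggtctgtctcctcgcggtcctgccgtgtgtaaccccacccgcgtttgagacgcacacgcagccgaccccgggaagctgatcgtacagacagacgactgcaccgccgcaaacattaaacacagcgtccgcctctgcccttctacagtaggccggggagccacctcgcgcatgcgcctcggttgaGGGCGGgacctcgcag
Nras: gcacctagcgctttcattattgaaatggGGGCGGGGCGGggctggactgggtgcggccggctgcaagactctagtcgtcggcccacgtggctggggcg
In the 250 bases before the start, Map2k1 held 4 GC boxes and 2 CCAAT boxes, Map2k2 held 1 GC box and no CCAAT box, and Nras held 2 GC boxes, which overlap each other. A GC box was found in 32.7% and a CCAAT box in 33.8% of the 32851 RefSeq promoter windows of this length. The cyclic AMP response element (TGACGTCA, either strand), found in 1.55% of windows, occurred 2 times before Braf and not before the other 4 genes. The ETS motif CCGGAAGT (2.88% of windows) and the AP-1 motif TGANTCA (6.75%), both searched on either strand, had no match in the 5 windows, which says only that these letters are not there. These matches are a description of the sequence, and nothing on these arrays measured binding.

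RAF kinases pass the signal from RAS to MEK. Braf, the RAF with the strongest activity towards MEK, was at 9.606 and 9.590 in controls and at 9.566 and 9.592 in mutants. The groups overlapped, and the whole range of the 4 values was narrower than the difference of Map2k1. The difference was -0.02 ± 0.05 (SE, limma adjusted p = 0.933; 95% interval -0.16 to 0.12), and it was 0.0014 when each array was centred on its median. A larger difference in size was found in 83.4% of the genes tested.

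Araf, an X-linked RAF gene with weaker activity towards MEK, was at 9.160 and 9.179 in controls and at 9.189 and 9.227 in mutants. Both mutants lay just above both controls. The difference was 0.04 ± 0.06 (SE, limma adjusted p = 0.836), or 1.03-fold, with a 95% interval from 0.932-fold to 1.13-fold. Female samples (control 1 and mutant 2) gave the lowest and the highest of the 4 values, and the male samples the values between. The male and female samples were spread over both groups.

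Nras encodes N-RAS, one of the GTPases that recruit RAF. It was at 10.507 and 10.512 in controls and at 10.622 and 10.633 in mutants. The replicates lay closer together than for the other core genes, 0.0054 apart in controls and 0.011 apart in mutants, and the mutants were both above the controls. In 95.6% of the genes tested the controls lay further apart than for Nras. The difference was 0.12 ± 0.05 (SE), or 1.09-fold, and it did not pass in limma (adjusted p = 0.433; 95% interval -0.02 to 0.25). Limma draws each gene's spread towards that of all genes, so the narrow replicate spread of Nras counts only in part. The difference stayed between 0.11 and 0.12 when any 1 array was left out, and 13.4% of the genes tested had a higher difference. Mras, a RAS relative that acts with SHOC2 on RAF, was at 9.062 and 9.214 in controls and at 9.140 and 9.288 in mutants, with groups that overlapped (difference 0.08, limma adjusted p = 0.773). Its sign turned without control 1, to -0.000325.

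Over the 5 core genes the means of 3 were higher and of 2 lower in mutants, with a median difference of 0.04 against 0.01 over all genes tested. The groups did not overlap in 2 genes with mutants higher (Araf, Nras) and in 1 with mutants lower (Map2k1), where 22.8% of all genes tested were higher and 21.4% lower without overlap. The upper ends of the 95% intervals of the genes other than Map2k1 lay between 1.09-fold for Braf and 1.19-fold for Nras and Map2k2. Both groups are null for Map2k2 by genotype, so its interval describes the array signal and not a gain of MEK2. These intervals hold for each gene alone, are not adjusted over genes and describe bulk tissue. They set no limit on a rise within a single cell type, and they moved with the arrays kept. Without control 1, for example, the Map2k2 difference was 0.13. Nor do they give the smallest rise that limma would call, since Mapk7 did not pass at 1.24-fold (limma adjusted p = 0.148).

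**Figure D2:**
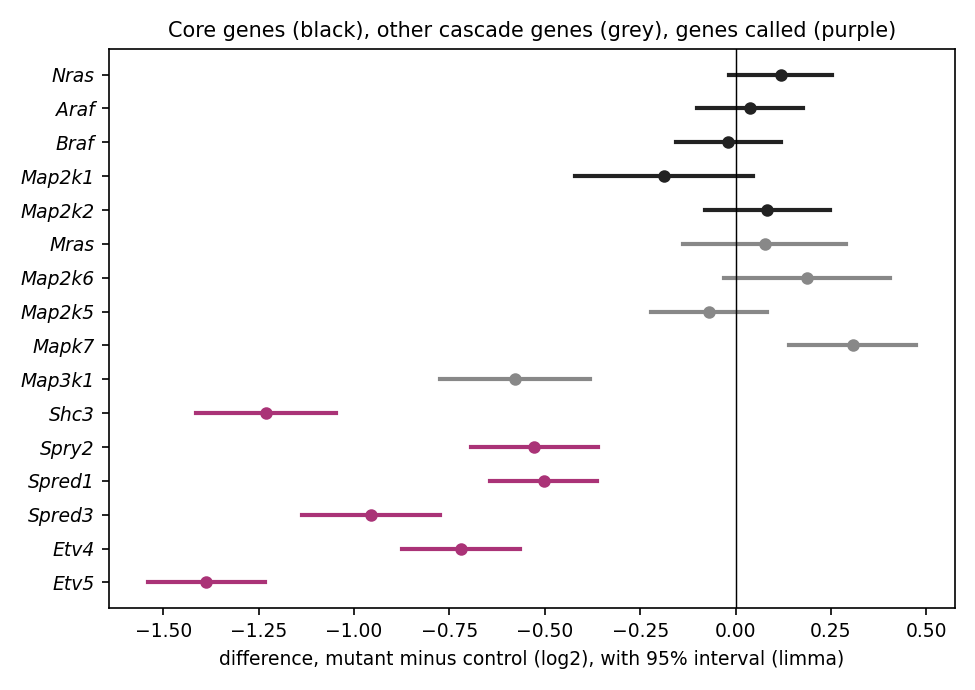
Mutant minus control (log2, x axis) with 95% intervals from limma for the core genes (black), other kinases and RAS relatives of the cascade (grey) and the genes of the cascade that passed the test (purple). The 5 core intervals all cross 0, whereas Etv5 lies at -1.39 and Shc3 at -1.23.

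Markers of several cell types moved between the groups, and a bulk value mixes all cells of a sample. Summed over the marker list, the astrocyte lineage (6 of 6 genes with a feature) was at log2 13.58 to 13.60 in controls and 11.99 to 12.21 in mutants, oligodendrocyte precursors (5 of 5) at 10.36 to 10.40 and 8.82 to 8.84, and dividing cells (5 of 6) at 10.95 to 11.07 and 9.98 to 10.15. Of the oligodendrocyte precursor genes, Pdgfra differed by -2.64, Olig1 by -2.16 and Olig2 by -1.85, but Sox10 by -0.28 and Cspg4 by 0.01. The mutant means of Olig2 and Pdgfra, 6.01 and 6.15, lay under the threshold for dim genes. Neuronal markers (6 of 6) were at 14.75 to 14.79 and 14.85 to 14.89, and endothelial markers (4 of 4) at 10.61 to 10.62 and 10.48 to 10.70. Microglial markers (4 of 4) were at 9.378 to 9.382 and 9.08 to 9.21. All 3 tested genes were lower in mutants without overlap, and none passed the test in limma (2 lower at an unadjusted p under 0.05). Of all genes tested, 21.4% were lower without overlap and 7.69% lower at an unadjusted p under 0.05 in limma. In bulk tissue, fewer cells of a type and less RNA per cell cannot be told apart. The part of these shifts in the core gene values was not tested.

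Upstream of RAS, 1 of 19 adaptors and exchange factors passed, lower. Over all genes tested, 1.01% passed as lower and 0.0143% as higher in limma. At an unadjusted p under 0.05, 7.69% were lower and 5.73% higher. These shares stand beside the counts of each list that follows. Shc3, an adaptor of neural receptor tyrosine kinases, was at 10.16 and 10.27 in controls and 9.04 and 8.92 in mutants, with no overlap. It fell 2.35-fold (limma adjusted p = 0.00934) but did not pass when every feature was tested (limma adjusted p = 0.217). Nor did it pass without control 1 or without control 2, where the difference was -1.28 and -1.18. None of the other 18 passed, among them the exchange factors Sos1 (0.03) and Sos2 (-0.01) and the adaptor Grb2 (0.14), chosen after their values were seen as the central link from receptors to RAS.

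GTPase-activating proteins switch RAS off. Of 9 tested none passed in limma, with 2 lower at an unadjusted p under 0.05 and a median difference of -0.14. Over all genes tested, 7.69% were lower at that p and the median difference was 0.01. Rasa3 was at 8.99 and 9.02 in controls and 8.62 and 8.66 in mutants (difference -0.37, adjusted p = 0.0651), past the threshold under 3 of 14 alternatives. Dab2ip had the smallest p among the members with a higher mean (0.09, adjusted p = 0.599). Nf1, which encodes the RAS GTPase-activating protein neurofibromin, was at 10.24 and 10.22 in controls and 10.05 and 10.10 in mutants (difference -0.15, adjusted p = 0.352 in limma), named after its value was seen.

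Of 9 genes tested for the lipid modification and transport of RAS, none passed in limma (1 higher at an unadjusted p under 0.05). The palmitoyltransferase subunit Zdhhc9 differed by 0.19 (adjusted p = 0.246) and the thioesterase Lypla1 by -0.16 (adjusted p = 0.521). Among 19 scaffolds and modulators of RAF and MEK none passed (2 lower and 1 higher at an unadjusted p under 0.05). Pea15a, a protein that holds ERK in the cytoplasm and is abundant in astrocytes, was at 11.19 and 11.21 in controls and 10.68 and 10.85 in mutants (difference -0.43, adjusted p = 0.0870 in limma). Cnksr2, a neuronal scaffold, differed by 0.37 (adjusted p = 0.196). Of the scaffolds that bind MEK directly, Ksr1 differed by 0.12 with both mutants above both controls, Ksr2 by 0.03 and Lamtor3 by 0.01 (named after their values were seen; limma adjusted p between 0.452 and 0.957).

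Kinases beside the core run the parallel MAP kinase modules or feed into MEK. Of 11 other MAP3K genes none passed in limma (1 lower and 3 higher at an unadjusted p under 0.05). Map3k1 was at 7.69 and 7.72 in controls and 7.04 and 7.22 in mutants (difference -0.58, adjusted p = 0.0517), past the threshold under 4 of 13 alternatives, and Map3k9 differed by 0.21 (adjusted p = 0.221). Of 4 other MAP2K genes none passed, nor at an unadjusted p under 0.05. Map2k6, a kinase of p38, was at 10.11 and 9.98 in controls and 10.32 and 10.14 in mutants (difference 0.19, adjusted p = 0.437 in limma), and Map2k5, the kinase that activates ERK5, differed by -0.07 (adjusted p = 0.695).

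Of 12 other MAPK genes none passed in limma, and 1 was higher at an unadjusted p under 0.05. That gene was Mapk7, which encodes ERK5, a MAP kinase that MEK5 activates. It was at 9.32 and 9.41 in controls and at 9.63 and 9.71 in mutants. Both mutants lay above both controls, and the difference was 0.31 ± 0.07 (SE, adjusted p = 0.148 in limma; 95% interval 0.14 to 0.47). Mapk15 differed by -0.11 (adjusted p = 0.615). Of 5 kinases that ERK activates none passed, nor at an unadjusted p under 0.05, with Mknk1 at -0.11 (adjusted p = 0.541) and Mknk2 at 0.09 (adjusted p = 0.581) in limma. Among 11 RAS relatives none passed either (1 lower and 1 higher at an unadjusted p under 0.05), with Rap2a at 0.21 (adjusted p = 0.215) and Rit2 at -0.26 (adjusted p = 0.355) in limma.

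**Figure D3:**
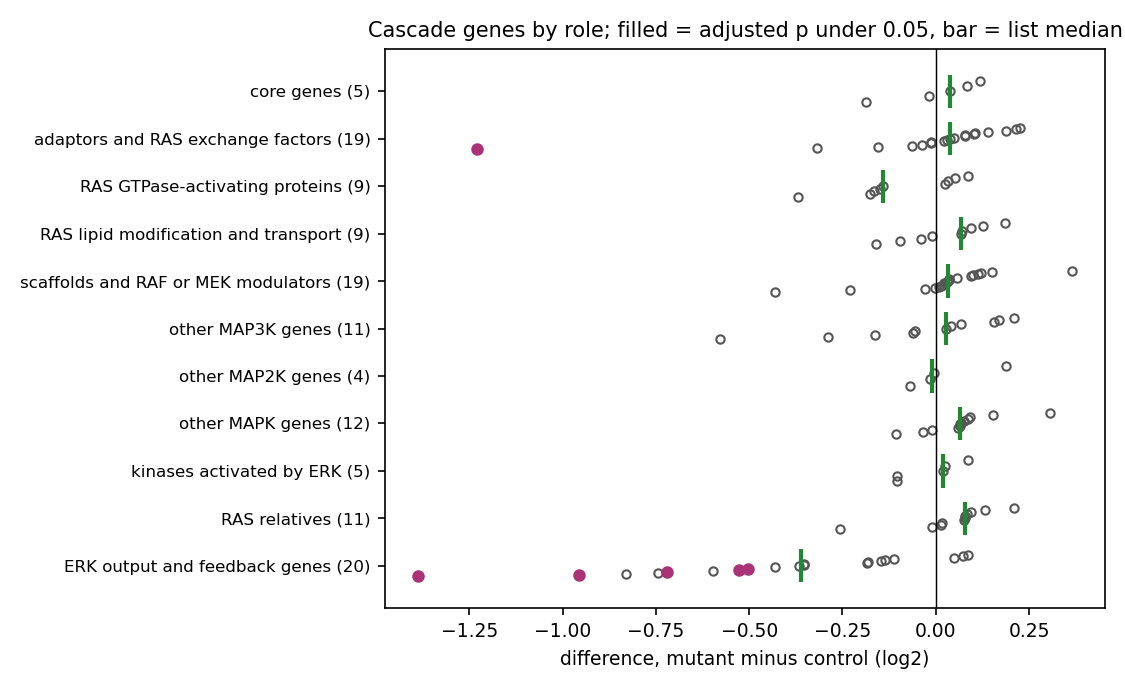
Mutant minus control (log2, x axis) for each tested gene of the cascade, grouped by role with the number of genes in brackets; filled points passed at an adjusted p under 0.05 and green bars are list medians. Core genes lie between -0.19 and 0.12 around a median of 0.04, and the output genes have a median of -0.36.

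In all, 100 genes of the cascade other than the core and output genes were tested, and 1 passed, lower, and none higher in limma (8 lower and 8 higher at an unadjusted p under 0.05). These counts are near the shares over all genes tested, 1.01% called lower, and 7.69% lower and 5.73% higher at an unadjusted p under 0.05. Their median difference was 0.03, and the groups did not overlap in 33 genes with mutants higher and in 18 with mutants lower, beside 22.8% and 21.4% of all genes tested.

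A list of ERK output and feedback genes is given as a reference for the core genes. It also holds the ETS factors Elk1, Elk3 and Elk4, so not every member is a transcript known to follow ERK activity. The decrease on this list was known before it was set. Of 20 output and feedback genes 5 fell and none rose in limma, with a median difference of -0.36, where 1.01% of all genes tested were called lower. At an unadjusted p under 0.05, 15 were lower and none higher, against 7.69% and 5.73% of all genes tested. The count was 1 without control 1 and 1 without control 2, 8 without mutant 1 and 11 without mutant 2. Etv5, an ETS factor induced by ERK, was at 8.71 and 8.61 in controls and 7.28 and 7.27 in mutants, and fell 2.62-fold (adjusted p = 0.00538 in limma). Spred3 fell 1.94-fold, Etv4 1.65-fold, Spry2 1.44-fold and Spred1 1.42-fold (limma adjusted p between 0.0185 and 0.0427). Spred and Sprouty proteins inhibit the cascade between receptor and RAF. Not all members went down: the means of 17 were lower and of 3 higher, namely Dusp7 (0.09), Elk1 (0.07) and Fos (0.05). Egr1 differed by -0.13, with groups that overlapped (limma adjusted p = 0.667). Several of the genes that fell are also abundant in progenitors and glial precursors, whose marker sums were lower in the same mutants. The part of that shift in the decrease of these genes was not tested.

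**Figure D4:**
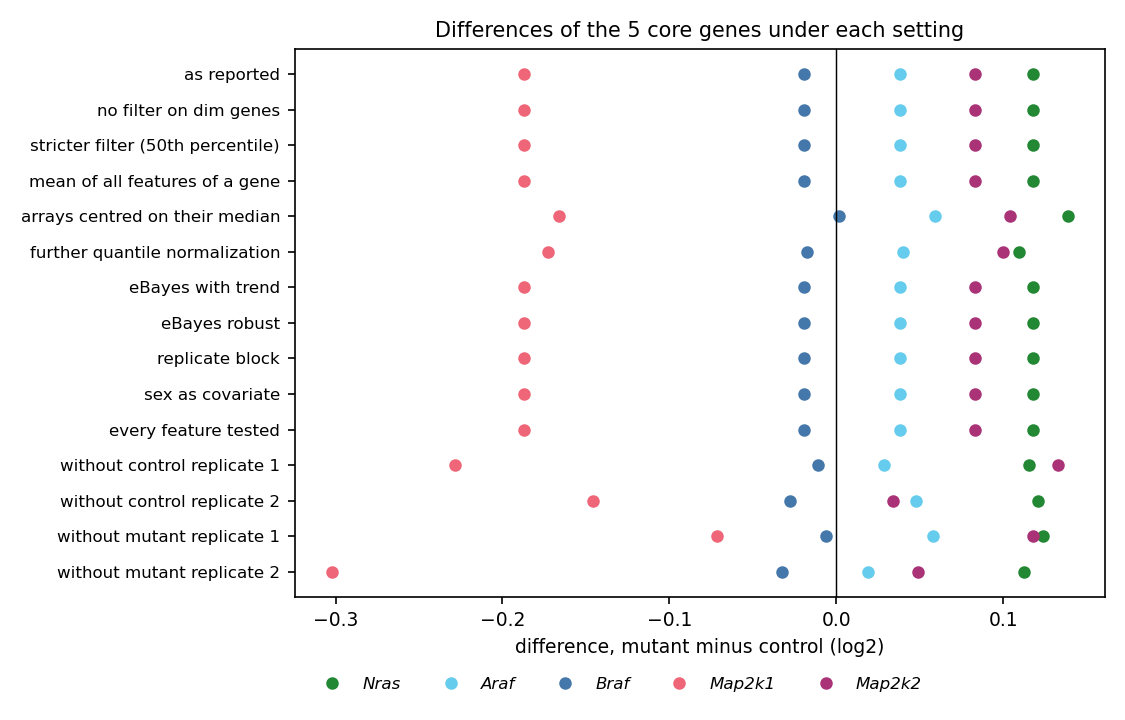
Mutant minus control (log2, x axis) of the 5 core genes under the reported setting and 14 alternatives (y axis). Map2k1 moves between -0.30 and -0.07 as mutant arrays are left out, Nras stays between 0.11 and 0.14, and Braf stays near 0.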

How the data were processed

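RNA of dorsal cortex from 4 samples (2 control, 2 mutant) was labelled with biotin for single-colour whole-transcript arrays. The authors deposited log2 expression values made with RMA, per the submitters' processing notes; no source used here gives its version, the build or a filter, and the range of the values set the log base. RMA gives the arrays like distributions, which hides a shift common to most transcripts, and compresses dim genes. No depth applies to arrays; their number limits the precision.

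Of 35557 features, 21789 have 1 gene symbol, 1621 several and 12147 are not listed in the platform annotation. Symbols were updated by Entrez identifier with the RefSeq table (GRCm38.p6; 21698 matched). The brightest feature per gene was kept (19938 genes), and genes with a mean under the 30th percentile (6.16) were left out, leaving 13956. The test was that of limma 3.58.1, run in R 4.3.3 (lmFit, then eBayes without trend, Benjamini-Hochberg over all genes tested; 2 residual and 3.31 prior degrees of freedom). The fit was tested on simulated data. Differences are mutant minus control.

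Core genes are always named. Of the lists, genes called are named (at most 6 per list), otherwise the smallest p in each direction; exceptions are marked. Members, lists and tests were chosen with earlier results of these data known. The labels share replicate numbers 1 and 2 between the groups. Deviations of same-numbered arrays correlated at -0.16 over genes, so the numbers were not taken as pairs.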

Additional observations from a re-analysis of the deposited data

How the results depend on the processing

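The 5 core genes stayed uncalled under all 14 alternatives in limma and with the crossed pairing, and 4 of them kept their sign; Braf turned to 0.0014 with arrays centred on their median, and Mras to -0.000325 without control 1 (at most 0.15, without control 2). Over all genes, 141 lower and 2 higher calls became 15 and 0 without the filter on dim genes, 217 and 21 with a trend, 17 and 0 with sex as covariate, 0 and 0 when every feature was tested, and 9 to 731 and 0 to 150 when 1 array was left out. The higher calls were 11 under the stricter filter and 1 after further quantile normalization. Of the output genes, 5 calls became 1 without the filter, 10 with a trend, 1 with sex, 0 with every feature and 1 to 11 without 1 array. Their median moved from -0.36 to -0.40 under the stricter filter, and lay between -0.41 and -0.34 without 1 array. Of the other 100 cascade genes, 1 lower call became 2 under the stricter filter, 2 with centring, 4 with a trend, 0 with every feature and 0 to 7 without 1 array (0 to 2 higher), and their median lay between 0.014 and 0.062 without 1 array. With the replicate number as a block, 113 genes were lower and 3 higher, with 3 output genes among them and none of the core genes; a call lost there is no sign of a weaker effect. Crossed numbers (control 1 with mutant 2), chosen after seeing the data, gave 17 lower and 0 higher, 1 output gene among them, the same fit as with sex. The cause of these moves was not tested, beyond fewer samples or more features tested. With 2 arrays per group, the half-width of the 95% interval exceeded the difference for each core gene.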

Other observations

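The genes next to the core genes were also looked at. Of 10 protein-coding neighbours, 7 were tested and none passed in limma. Over all genes tested, 1.01% passed as lower and 0.0143% as higher, so none among 7 is near those shares. Beside Map2k1, Snapc5, a subunit of the small nuclear RNA activating complex, was at 8.32 and 8.31 in controls and at 8.39 and 8.32 in mutants (difference 0.03, adjusted p = 0.865). On the other side, Tipin, a replication fork protein, was at 9.906 and 10.003 in controls and at 9.557 and 9.649 in mutants (difference -0.35, adjusted p = 0.114 in limma). Dividing-cell markers were lower in the same mutants, and their part in the Tipin value was not tested. Beside Map2k2, Creb3l3 and Zbtb7a differed by 0.02 each. Mrps33 beside Braf (-0.06) and Usp11 beside Araf (-0.10) were lower in mutants without overlap, as was Tipin. The groups overlapped in the other neighbours tested. Of all genes tested, 21.4% were lower without overlap.

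For a search of similar profiles, predicted or unnamed genes and olfactory or vomeronasal receptors were left aside. Among the rest, Psme1, a proteasome activator subunit, Phtf1os, and Wnt7a, a Wnt ligand, had the profile most like Map2k1 over the 4 arrays. Their values, centred on each gene's own mean, lay at a root mean square distance of 0.0059, 0.0063 and 0.0069 from those of Map2k1. Wnt7a, for example, was at 8.41 and 8.50 in controls and 8.15 and 8.37 in mutants. Of all genes tested, with none left aside, 330 lay within 0.05, so 4 arrays single out no gene by this measure.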
